A study of Mus musculus with 6 samples.

Results

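The MAP kinase feedback inhibitors examined here are 10 genes taken by symbol from a table of 23420 gene rows. They comprise 7 dual-specificity phosphatases (*Dusp1*, *Dusp2*, *Dusp4*, *Dusp5*, *Dusp6*, *Dusp7* and *Dusp10*), the Sprouty genes *Spry1* and *Spry2*, and the Sprouty-related *Spred1*. All 10 had a row in the table and all passed the minimum of 10 counts over the 6 libraries. Splenic B cells came from 3 AhR-sufficient (Ahr+/+) and 3 AhR-deficient (Ahr-/-) mice of the C57Bl/6J background strain, used after 8 weeks of age. Both genotypes received the same culture, 8 h with anti-IgM at 10 μg/ml, which engages the B-cell receptor (BCR), and IL-4 at 20 ng/ml, with the AhR ligand FICZ at 250 nM over the final 4 h. No unstimulated and no FICZ-free library was analysed here, so each value compares genotypes in activated, ligand-treated cells. The Ahr-/- mice lacked AhR in every tissue and not in B cells alone, and the B cells were enriched with an isolation kit, which leaves some other spleen cells in the culture.

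Engagement of the BCR activates RAS and then the kinases RAF, MEK and ERK, and in parallel the stress kinases JNK and p38. The same signals induce their own inhibitors. Dual-specificity phosphatases remove phosphate from both the threonine and the tyrosine of the activation loop of a MAP kinase, whereas Sprouty and Spred proteins act upstream, between the receptor and RAF. The mRNAs of these inhibitors are therefore widely read as a trace of recent MAP kinase signalling, although a transcript level measures neither the phosphatase protein nor the phosphorylation of its substrate.

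Sequences upstream of the annotated start are shown first for 4 members: *Dusp5* as the member with the largest fold change, *Dusp2* as the most abundant, *Dusp1* as the immediate early member, and *Spry1* as the member whose fold change was closest to 0. RefSeq promoter windows on GRCm38.p6, from 250 bases before to 50 bases after the start, were found for 9 of the 10 members, the exception being *Dusp4*. Distances are counted from the RefSeq start, which is the outermost GENCODE start for 5 of the 9. It lies 36 bases inside the GENCODE gene for *Dusp5*, 303 bases outside it for *Spred1*, and far inside it for *Dusp1* and *Dusp10*. The motifs searched on both strands were the core of the AhR-bound element (GCGTG), the cAMP response element (TGACGTCA), the AP-1 site (TGANTCA), the CArG box bound by serum response factor and the NF-κB site. *Dusp5* is shown for all 250 bases before its RefSeq start, on the forward strand at chr19:53528895-53529144, with the AhR cores and CArG boxes in capitals. *Dusp2* (forward strand, chr2:127335950-127335994) and *Spry1* (forward strand, chr3:37639841-37639923) are shown around their upstream AhR cores, and *Dusp1* (reverse strand, chr17:26508588-26508635) around its cAMP element, in each case with the match in capitals.
Dusp5: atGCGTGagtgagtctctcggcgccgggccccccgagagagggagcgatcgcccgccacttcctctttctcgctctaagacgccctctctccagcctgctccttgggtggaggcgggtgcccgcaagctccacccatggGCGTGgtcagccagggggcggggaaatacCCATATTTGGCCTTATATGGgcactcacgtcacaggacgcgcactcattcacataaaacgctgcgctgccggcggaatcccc
Dusp2: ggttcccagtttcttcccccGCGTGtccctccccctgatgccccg
Dusp1: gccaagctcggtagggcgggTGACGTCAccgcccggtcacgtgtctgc
Spry1: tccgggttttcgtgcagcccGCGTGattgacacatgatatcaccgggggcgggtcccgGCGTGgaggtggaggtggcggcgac

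The *Dusp5* window carried 2 abutting CArG boxes, CCATATTTGG from 82 to 73 bases and CCTTATATGG from 72 to 63 bases upstream of the RefSeq start, and each reads as a CArG box on both strands. A CArG box occurred in 1.63% of the 32851 windows of 300 bases, and *Dusp5* was the single member with one. An NF-κB match in the same window shared its last base with the first base of the upstream CArG box, and such a match occurred in 12.2% of windows and in 2 members, *Dusp5* and *Spred1*. The cAMP element was present in 1.79% of windows and, among members, in *Dusp1* alone. The AP-1 letters, found in 7.81% of windows, were in none of the 9 member windows. The AhR core was present in 6 of the 9, *Dusp2*, *Dusp5*, *Dusp7*, *Spry1*, *Spry2* and *Spred1*, against 32.4% of windows overall. In *Spry2* the match lay just downstream of the start, and *Spry1*, which held 3 matches, 1 of them downstream of the start and not printed, was also the member with the smallest absolute fold change. These are matches of letters and no measure of binding.

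Across the transcriptome, 17.9% of the 13682 tested genes differed between genotypes at an adjusted p-value under 0.05 in edgeR, 9.79% being higher and 8.13% lower in Ahr-/- B cells. Among the feedback inhibitors 6 of 10 were higher and 0 were lower. *Dusp2*, *Dusp4*, *Dusp5*, *Dusp10*, *Spry2* and *Spred1* rose, while *Dusp1*, *Dusp6*, *Dusp7* and *Spry1* did not pass the test. The median log2 fold change of the 10 was 0.29, beside 0.0022 over all tested genes, and 9 of the 10 values were above 0. The changes were small, none reaching 2-fold. The 3 libraries of one genotype did not overlap the 3 of the other for 7 members, and this held for 33.5% of all tested genes. With 3 mice against 3, a two-sided exact permutation test of a single gene cannot give less than p = 0.1, and these 7 members all gave that value.

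**Figure D1:**
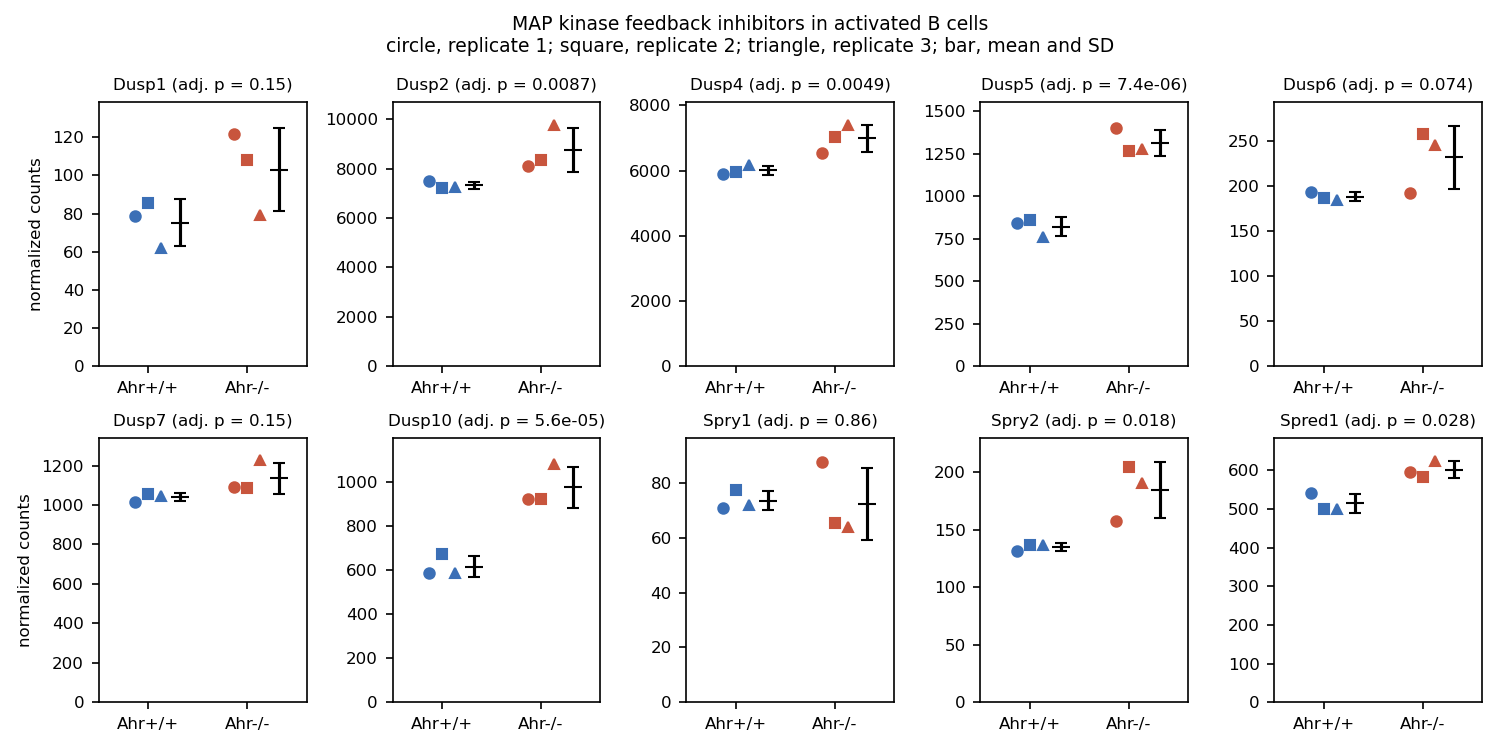
Normalized counts of each feedback inhibitor (y axis, starting at 0) in the 3 Ahr+/+ (blue) and 3 Ahr-/- (red) libraries, with the mean and SD as a black bar and the adjusted p-value of edgeR above each panel. The genotypes stand apart for 7 members, *Dusp5* and *Dusp10* with the largest fold changes, and the Ahr-/- points straddle the Ahr+/+ points for *Spry1*.

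The inducible nuclear phosphatases included the most abundant members, *Dusp2* and *Dusp4*, and 3 of the 4 rose, beside 9.79% of all tested genes. *Dusp5* encodes a nuclear phosphatase selective for ERK, which it also anchors in the nucleus. It had 844, 861 and 759 normalized counts (counts scaled to a common library size) in Ahr+/+ B cells and 1404, 1265 and 1276 in Ahr-/- B cells. Every Ahr-/- library was thus far above every Ahr+/+ library. The mean rose from 821 ± 54.6 to 1315 ± 77.2 (SD, n = 3 mice each), 1.59-fold, with a log2 difference of 0.67 (SE 0.061, adjusted p = 7.4e-06 from edgeR). In GRCm38, *Dusp5* spans 53529109 to 53542431 on chromosome 19, forward strand. *AC137853.2*, an annotated gene on the opposite strand, overlaps 22.1% of the exon bases of *Dusp5*. The use of strand in counting is not given in the sources used here, which leaves the *Dusp5* counts uncertain. How many reads fell in the shared bases was not examined.

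*Dusp2*, also called PAC-1, is a nuclear phosphatase first found in activated lymphocytes. Its normalized counts were 7485, 7217 and 7243 in Ahr+/+ and 8111, 8362 and 9751 in Ahr-/- libraries. The Ahr+/+ values lay close together and the Ahr-/- values were all higher, replicate 3 standing above the other two. The rise from 7315 ± 148 to 8741 ± 883 (SD, n = 3 mice each) was 1.20-fold (log2 0.26, SE 0.059, adjusted p = 0.0087 from edgeR). Without Ahr-/- replicate 3 the log2 value was 0.17 and still passed the test, and over 14 alternative settings the adjusted p lay between 0.000135 and 0.043. *Dusp2* occupies chromosome 2 from 127336159 to 127338376 on the forward strand, with no overlapping gene.

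*Dusp4*, a nuclear phosphatase of ERK and JNK, had 5904, 5950 and 6177 normalized counts in Ahr+/+ B cells. In Ahr-/- B cells it had 6556, 7025 and 7397. The groups did not overlap. The mean went from 6011 ± 146 to 6993 ± 421 (SD, n = 3 mice each), which is 1.16-fold (log2 0.22, SE 0.046, adjusted p = 0.0049 from edgeR). The gene lies on chromosome 8 from 34807297 to 34819894, forward strand.

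*Dusp1*, the immediate early phosphatase that acts mainly on p38 and JNK, was scarce at this time. The libraries held 81, 85 and 55 reads in Ahr+/+ and 71, 152 and 87 in Ahr-/- B cells, for which counting error alone is between 8.11% and 13.5% of the value. Normalized counts were 78.7, 85.5 and 61.8 against 122, 108 and 79.3. Ahr-/- replicate 3 fell inside the Ahr+/+ range and the others lay above it. The log2 difference of 0.43 (95% interval 0.016 to 0.83, adjusted p = 0.15 from edgeR) did not pass the test. It passed in 1 of 14 alternative settings, without Ahr-/- replicate 3 (log2 0.58, adjusted p = 0.036), and over all of them the adjusted p lay between 0.036 and 0.39. In GENCODE the gene spans 26505590 to 26562128 on the reverse strand of chromosome 17 and shares 11 exon bases with *Ergic1* on the opposite strand.

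The phosphatases of the cytoplasm, *Dusp6* and *Dusp7*, are both selective for ERK. *Dusp6* had 193, 187 and 184 normalized counts in Ahr+/+ B cells and 192, 258 and 245 in Ahr-/- B cells. Replicate 1 of the Ahr-/- libraries was at the Ahr+/+ level and the other two were above it. The log2 difference was 0.32 (95% interval 0.074 to 0.58, adjusted p = 0.074 from edgeR), short of the threshold. Leaving out that library gave 0.42 (adjusted p = 0.017), the single passing setting of 14, with the adjusted p ranging from 0.017 to 0.31. *Dusp7* had 1017, 1056 and 1046 normalized counts in Ahr+/+ and 1090, 1086 and 1227 in Ahr-/- libraries. Its groups did not overlap, yet the gap between them was narrow. The log2 difference of 0.13 (95% interval 0.0048 to 0.25, adjusted p = 0.15 from edgeR) passed the test in none of the 14 alternatives, and was lowest, at 0.064, without Ahr-/- replicate 3. *Dusp6* lies on chromosome 10 from 99263231 to 99267489 and *Dusp7* on chromosome 9 from 106368632 to 106375724.

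*Dusp10* encodes MKP-5, a phosphatase of JNK and p38 with little activity on ERK. It had 589, 672 and 588 normalized counts in Ahr+/+ B cells and 922, 925 and 1083 in Ahr-/- B cells, so the lowest Ahr-/- library stood well above the highest Ahr+/+ library. The rise from 616 ± 48.2 to 977 ± 92.4 (SD, n = 3 mice each) was 1.59-fold (log2 0.67, SE 0.077, adjusted p = 5.6e-05 from edgeR). The size of this change matched that of *Dusp5* to within the standard errors. Both exceeded, in absolute log2 fold change, 88.2% (*Dusp10*) and 88.3% (*Dusp5*) of all tested genes. *Dusp10* lies on chromosome 1 from 184013302 to 184075636 on the forward strand. The gene *1700056E22Rik*, within its span on the opposite strand, shares 0 exon bases with it.

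Of the inhibitors that act upstream of RAF, *Spry2* and *Spred1* rose and *Spry1* did not pass the test. *Spry2* had 131, 137 and 137 normalized counts in Ahr+/+ and 158, 205 and 191 in Ahr-/- libraries, without overlap. This was a 1.39-fold rise (log2 0.47, SE 0.12, adjusted p = 0.018 from edgeR). *Spry2* was not past the threshold without Ahr+/+ replicate 1 (adjusted p = 0.056), without Ahr+/+ replicate 3 (adjusted p = 0.057) or without Ahr-/- replicate 2 (log2 0.39, adjusted p = 0.11), and over all 14 alternatives the adjusted p lay between 0.0086 and 0.11. *Spred1*, whose protein binds RAS and the RAS inhibitor neurofibromin, had 541, 500.0 and 501 against 596, 583 and 625, again without overlap. Its 1.17-fold rise (log2 0.22, SE 0.063, adjusted p = 0.028 from edgeR) passed the test in 8 of the 14 alternatives, against 11 for *Spry2*. It was lost without Ahr+/+ replicate 2 (adjusted p = 0.081), Ahr+/+ replicate 3 (0.101), Ahr-/- replicate 1 (0.0504), Ahr-/- replicate 2 (0.0526) or Ahr-/- replicate 3 (0.0869), and in DESeq2's Wald test (0.079), the range over all alternatives being 0.015 to 0.101.

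*Spry1*, the close relative of *Spry2*, had 70.9, 77.5 and 71.9 normalized counts in Ahr+/+ and 87.5, 65.4 and 63.8 in Ahr-/- libraries. Replicate 1 of the Ahr-/- libraries lay above all Ahr+/+ values and the other two lay below them. The log2 difference was -0.06 (95% interval -0.43 to 0.32, adjusted p = 0.86 from edgeR), an interval that overlaps that of *Spry2*, 0.21 to 0.74. The difference between *Spry1* and *Spry2* was not tested. The *Spry1* value changed sign without Ahr-/- replicate 2 (0.0082) or replicate 3 (0.006). The libraries held between 51 and 92 reads of *Spry1*, and *Gm42922* on the opposite strand shares 24.4% of its exon bases. *Spry1* lies on chromosome 3 from 37639947 to 37644598, *Spry2* on chromosome 14 from 105891947 to 105896819 and *Spred1* on chromosome 2 from 117121374 to 117182279. No member lies on chromosome 12, which carries *Ahr*.

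**Figure D2:**
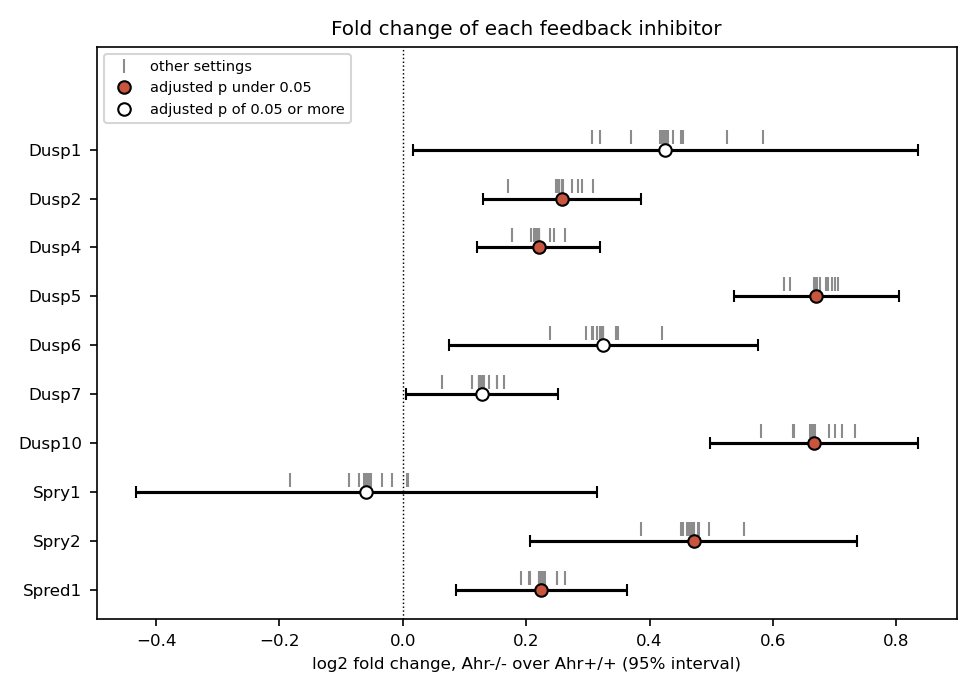
Log2 fold change of each feedback inhibitor in Ahr-/- over Ahr+/+ B cells (x axis), with 95% intervals that are not adjusted for multiple testing. Filled points passed an adjusted p-value of 0.05, grey ticks are the 14 alternative settings, and the intervals of 9 members lie above 0, *Spry1* being the exception.

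The coefficient of variation over the 3 mice was larger in Ahr-/- than in Ahr+/+ libraries for 8 of the 10 members and for 50.1% of all tested genes, a difference that was not tested. It was, for example, 10.1% against 2.02% for *Dusp2* and 15.1% against 2.47% for *Dusp6*. The exceptions were *Dusp5*, with 5.87% against 6.65%, and *Spred1*, with 3.55% against 4.55%. The highest Ahr-/- library was replicate 3 for 5 members (*Dusp2*, *Dusp4*, *Dusp7*, *Dusp10* and *Spred1*), replicate 1 for 3 (*Dusp1*, *Dusp5* and *Spry1*) and replicate 2 for 2 (*Dusp6* and *Spry2*). The members thus did not share one leading mouse. Ahr-/- replicate 1 was also the shallowest library and gave the lowest Ahr-/- value of 5 members.

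Scaled by exon length, the level of the members spanned more than 2 orders of magnitude, with *Dusp2* and *Dusp4* on top. In normalized counts per kb of exon, the level of *Dusp2* was 3652 ± 73.7 in Ahr+/+ cells, and that in Ahr-/- cells was 4364 ± 441 (SD, n = 3 mice each). *Dusp4* followed with 2194 ± 53.2 and 2552 ± 154. The remaining members were far lower, *Dusp5* at 332 ± 22.1 in Ahr+/+ cells and *Dusp1* lowest at 22.7 ± 3.69. As shares of the summed length-scaled level of the 10 members, *Dusp2* made up 52.6% in Ahr+/+ and 51.9% in Ahr-/- cells, and *Dusp5* 4.79% and 6.32%. The order in Ahr+/+ cells was *Dusp2*, *Dusp4*, *Dusp5*, *Dusp7*, *Dusp10*, *Spred1*, *Spry2*, *Dusp6*, *Spry1* and *Dusp1*, where *Dusp5* and *Dusp7*, and *Spry1* and *Dusp1*, overlapped in their libraries. In Ahr-/- cells *Spry1* and *Dusp1* changed places but still overlapped. *Dusp5* now stood clear of *Dusp7*, while *Dusp7* overlapped *Dusp10*, *Spred1* overlapped *Spry2*, and *Spry2* overlapped *Dusp6*.

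**Figure D3:**
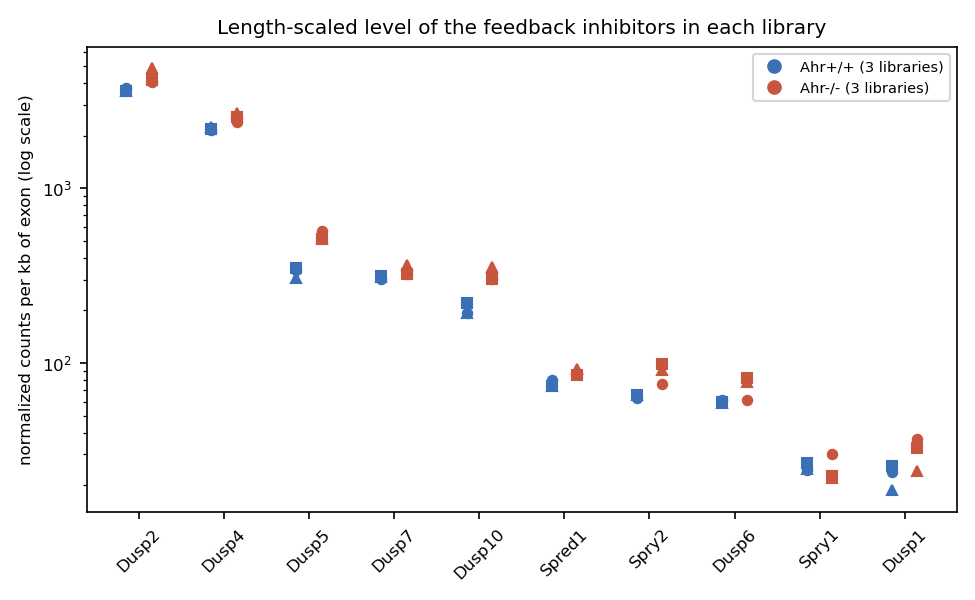
Level of each feedback inhibitor in normalized counts per kb of annotated exon (y axis, log scale) in every library, ordered by the Ahr+/+ mean. *Dusp2*, with a mean of 3652, and *Dusp4*, with 2194, lie far above *Dusp5* (332) and the other members in Ahr+/+ cells.

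Of 21 other dual-specificity phosphatase, Sprouty and Spred genes, 15 were tested, 1 was higher and 2 were lower (20.0%, beside 17.9% of all tested genes), with a median log2 fold change of 0.05. *Dusp14*, a small phosphatase lacking the MAP kinase-binding domain, had 112 ± 14.3 normalized counts in Ahr+/+ and fell to 67.1 ± 11.7 (SD, n = 3 mice each; adjusted p = 0.0079 from edgeR). *Dusp16*, a JNK and p38 phosphatase like *Dusp10*, also fell, from 1006 to 795 (log2 -0.34, adjusted p = 0.0024). *Dusp9*, an ERK phosphatase, rose from a mean of 4.12 to 11.4 normalized counts, close to the limit of detection. *Spry4* and *Spred2*, the nearest relatives of the upstream inhibitors, did not pass the test (adjusted p = 0.67 and 0.85).

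Among the MAP kinase genes, the stress kinase genes *Mapk11* and *Mapk12* fell and the ERK1 gene *Mapk3* rose. Of 20 genes from RAS to ERK, 3 were higher and 3 lower (30.0%, beside 17.9% of all tested genes), with a median log2 fold change of -0.02. The MEK genes *Map2k1* and *Map2k2* had log2 fold changes of -0.0075 and -0.016 and did not pass the test. *Mapk3* rose from 2066 to 2401 normalized counts (log2 0.22, adjusted p = 0.0034 from edgeR). The adaptor *Grb2* (log2 0.29) and the RAS exchange factor *Rasgrp1* (log2 0.34) rose as well, whereas the RAS-related *Rras2* (-0.16) and the scaffold *Ksr1* (-0.31) were among those that fell. Of 12 tested genes of the JNK and p38 cascades, 2 were higher and 4 lower (6 called), beside the same 17.9%. *Mapk12*, encoding p38γ, went from 457 ± 76.2 down to 137 ± 19.9 normalized counts and *Mapk11*, encoding p38β, from 884.5 ± 58.7 down to 551 ± 85.0 (SD, n = 3 mice each; adjusted p = 1.9e-06 and 2.4e-04 from edgeR). The main p38 gene, *Mapk14*, gave a log2 fold change of 0.01 (adjusted p = 0.88). Upstream, the JNK and p38 activator *Map3k5* (ASK1) fell by 0.71 on the log2 scale and *Map3k1* (MEKK1) rose by 0.51.

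Of 14 other brakes on RAS and ERK, 3 were higher and 2 lower (35.7%, beside 17.9% of all tested genes), with a median log2 fold change of 0.07. The RAS GTPase-activating gene *Rasal1* had 3362 ± 52.0 normalized counts in Ahr+/+ and fell to 2060 ± 203 (SD, n = 3 mice each; adjusted p = 3.2e-06 from edgeR), and *Rasa2* fell by 0.16 on the log2 scale. *Dok3*, an adaptor that dampens BCR signalling, rose (log2 0.43), as did *Rasal3* (0.19) and *Dok1* (0.16).

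Among other genes that ERK signalling typically induces, more were lower than higher. Of 20 such genes, 9 were lower and 1 was higher in Ahr-/- B cells, beside 8.13% lower and 9.79% higher among all tested genes, and their median log2 fold change was -0.26. The AP-1 gene *Junb* fell from 6954 ± 214 to 3122 ± 150 normalized counts, and the BCR-induced transcription factor gene *Egr3* from 5974 ± 318 to 3748 ± 384 (SD, n = 3 mice each; adjusted p = 2.6e-09 and 1.2e-05 from edgeR). *Fos* (log2 -0.64), *Fosb* (-0.86) and *Fosl1* (-0.52) fell too. *Egr1* had a log2 fold change of -0.25 and *Myc* one of 0.08, neither past the threshold (adjusted p = 0.060 and 0.13). *Ccnd1*, encoding cyclin D1, was the gene that rose, from 34.7 ± 5.14 to 93.0 ± 13.5. These lists and the 10 members were measured in the same 6 libraries and are not independent of each other. Some of the genes also answer to signals other than ERK.

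**Figure D4:**
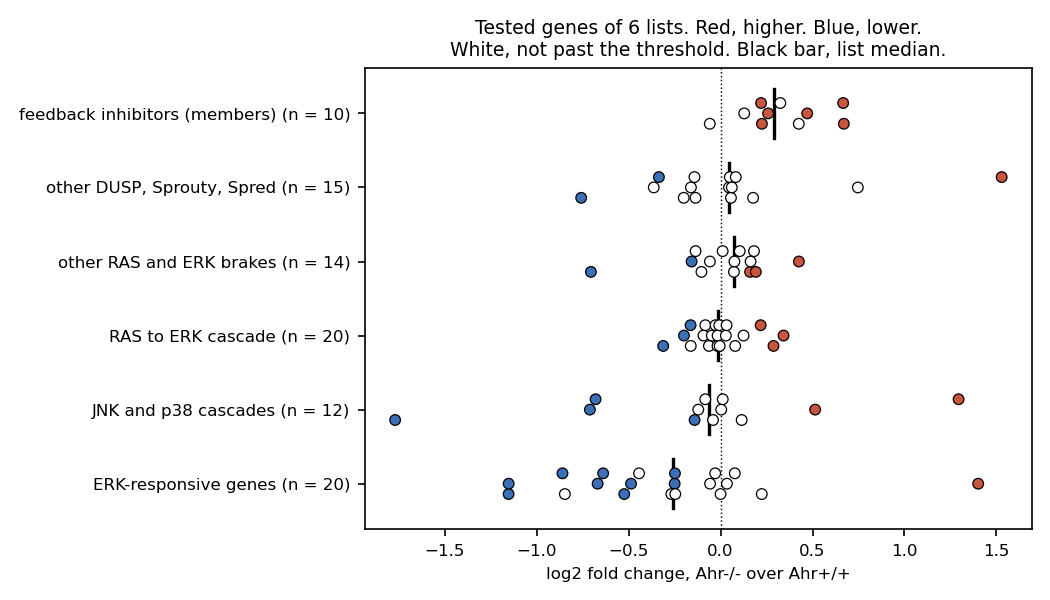
Log2 fold change in Ahr-/- over Ahr+/+ B cells (x axis) of every tested gene of 6 lists, one point per gene, with the list median as a black bar. The median is 0.29 for the feedback inhibitors and -0.26 for the ERK-responsive genes, and those of the other 4 lists range from -0.06 to 0.07.

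Total counts ranged from 22095096 to 53648787 reads per library, both extremes being Ahr-/-, and all 6 libraries held Y-linked transcripts. *Ahr* itself had 12681, 12892 and 13953 normalized counts in Ahr+/+ and 8856, 8949 and 9717 in Ahr-/- libraries (a count over the whole gene, in which the deleted part was not examined separately). Its target *Cyp1a1* had 5246 ± 242 and 5.36 ± 2.20 (SD, n = 3 mice each), the direction that the genotype labels call for. The 6 B-cell markers, among them *Cd79a*, *Cd79b*, *Ms4a1*, *Cd22* and *Pax5*, were abundant in every library and 4 of the 6 were higher in Ahr-/- B cells, their summed level being 69382 to 73136 in Ahr+/+ and 82452 to 86256 normalized counts in Ahr-/- libraries. Of 10 plasmacytoid dendritic cell markers 8 were higher and 1 lower, with summed levels of 34198 to 36047 and 41233 to 42145, most of it from *Irf8* and *Tcf4*, which B cells also express. *Tcf4* was the one that fell, and the defining marker *Siglech* had 56.8 ± 4.19 normalized counts and rose to 270 ± 32.3 (SD, n = 3 mice each). Of 9 conventional dendritic cell markers 5 were higher and 1 lower, with summed levels of 1950 to 2297 and 2419 to 2686. Macrophage markers summed to 1229 to 1525 and 667 to 1198 (2 higher and 1 lower of 8; 575 to 863 and 631 to 1135 without *Adgre1*, the one that fell), T-cell markers to 274 to 391 and 254 to 266 (2 lower of 7), and NK-cell markers to 248 to 341 and 315 to 476 (2 higher of 6). Neutrophil markers summed to 123 to 371 and 146 to 540 (0 of 5 past the threshold; edgeR), and plasma cell markers to 14212 to 20220 and 13376 to 15019 (1 higher and 2 lower of 5). No listed marker with a row was at 0 in all libraries. The part of these cells in the rise of the feedback inhibitors was not tested, and in such bulk libraries more cells of a type and more RNA per cell cannot be told apart.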

How the data were processed

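Polyadenylated RNA of 6 B-cell cultures, 1 per mouse, was sequenced from stranded libraries. Raw counts of reads per gene were deposited under gene symbols. The submitters' processing notes name mm10, TopHat2, HTSeq and DESeq; the HTSeq setting for strand is not given in the sources used here. Deposited normalized counts and the authors' table of fold changes and p-values were not used.

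The analysis of the counts used edgeR 4.0.16 under R 4.3.3 (TMM scaling, quasi-likelihood test, genotype as the only term, prior count 0.125) over the 13682 genes with at least 10 counts in total, with Benjamini-Hochberg adjustment over all of them and a threshold of 0.05. DESeq2 1.42.0 served as an alternative. Standard errors are the absolute log2 fold change divided by the square root of F, and intervals are at 95%. The procedure was tested on simulated data. No pair of libraries matched within sampling noise: chi-square over its degrees of freedom was at least 3.8 within a genotype. A level of 3 counts corresponds to between 0.0555 and 0.134 CPM, covering counting error only.

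Gene models and exon lengths are from GENCODE M21 (GRCm38, the same assembly as mm10), and promoter windows from RefSeq. The members, the gene lists and the markers were chosen with earlier results of these data known. Named were all members and, within the pathway lists, genes past the threshold with an absolute log2 fold change of at least 0.5 whose mean reached 50 normalized counts in 1 genotype or both, plus *Map2k1*, *Map2k2*, *Mapk3*, *Egr1*, *Fos* and *Myc*. Most markers and AhR check genes that met this rule are not named, the markers being given as counts and sums, and some genes of the lists are not reported by name here. Other list genes were named after their values were seen, and so were the motifs.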

Additional observations from a re-analysis of the deposited data

How the results depend on the processing

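Alternatives changed the scaling (size factors of DESeq2, or library size alone), the filter (none, or 10 counts in 3 or more libraries), the test (DESeq2's Wald test, a robust fit, the replicate block), the prior count (2), the threshold (0.01) and the libraries (each left out in turn). The number of feedback inhibitors past the threshold was 6 and lay between 4 and 6 under all of them, always with 0 lower. It was 4 without Ahr+/+ replicate 3, without Ahr-/- replicate 2, and at an adjusted p-value under 0.01, where *Spry2* and *Spred1* were lost. Genes past the threshold numbered 2453, fell to 1473 at 0.01, and lay between 1664 and 2601 with a library left out. Higher genes were 54.6% of them, 63.8% with library size alone and 50.5% in DESeq2's Wald test. Of the members' 140 values under the 14 alternatives that keep the threshold, 127 kept direction and side of the threshold, 9 lost significance (*Spry2* and *Spred1*), 2 gained it (*Dusp1* and *Dusp6*) and 2 changed sign. Both sign changes were in *Spry1*, which lay between -0.18 and 0.0082 with libraries left out. *Dusp2*, *Dusp4*, *Dusp5* and *Dusp10* passed in every fit at 0.05. Same-numbered libraries did not deviate together throughout, with correlations of -0.142, 0.255 and -0.161 for replicates 1, 2 and 3 over 10313 genes. Differently numbered libraries reached 0.38 (Ahr+/+ replicate 1 with Ahr-/- replicate 3) and -0.359 (Ahr+/+ replicate 1 with Ahr-/- replicate 2). The numbers were therefore not taken as pairs. With the replicate block 2303 genes and 6 members passed. The cause of these shifts was not tested. Depth limits *Dusp1* and *Spry1* most, with as few as 55 and 51 reads.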
